A study of Sus scrofa with 3 samples.

Results

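The miRNAs described here are the porcine members of the cluster of miR-424, miR-503, miR-542 and miR-450 in psoas major muscle of growing pigs. Members were all entries whose name, without the suffix that describes the read, was a porcine mature name of miR-322, miR-424, miR-450, miR-503 or miR-542. The rule found 9 of the 268 porcine mature miRNAs in the files, and no porcine name of miR-322. The small RNA libraries stood for 3 ages of pig, 63, 98 and 161 d, with 1 library per age. The animals were castrated male hybrids of Landrace, Large White and Duroc and are called fattening pigs in the labels. A treatment is not given in the labels for any age. Equal amounts of RNA of several pigs were pooled for each library, so the spread between pigs of 1 age was not measured. The intervals given below are 95% intervals for counting error, and they compare libraries rather than ages.

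In mammals the hairpins of miR-424 (called miR-322 in the mouse), miR-503, miR-542 and miR-450 lie close together on the X chromosome and are cut from shared primary transcripts. Each hairpin can give a mature miRNA from its 5′ side (5p arm) and from its 3′ side (3p arm), and the bases 2 to 8 of the mature miRNA, its seed, pair with the targets. miR-424 and miR-503 belong to the miR-15/16 group, whose targets include cell cycle genes. Both are known to increase when myoblasts leave the cell cycle and differentiate, where they lower the phosphatase Cdc25A. miR-542-3p is known to lower survivin, a protein of cell division.

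The 9 mature sequences, as the files quote them from miRBase, are shown with the seed in capitals, because the seeds show which members can share targets and which reads can be confused.
ssc-miR-450a: tTTTGCGAtgtgttcctaatat
ssc-miR-450c-5p: tTTTGCGAtgtgttcctaatac
ssc-miR-450b-5p: tTTTGCAAtatgttcctgaata
ssc-miR-450c-3p: aTTGGGAAcattttgcattcgt
ssc-miR-450b-3p: tTGGGAACattttgcatccat
ssc-miR-542-5p: tCGGGGATcatcatgtcacga
ssc-miR-542-3p: tGTGACAGattgataactgaaa
ssc-miR-424-5p: cAGCAGCAattcatgttttgaa
ssc-miR-503: tAGCAGCGggaacagtactgcag
ssc-miR-450a and ssc-miR-450c-5p had the same seed and were equal at 21 of 22 positions. Counted from 1 at the 5′ end, with the base of ssc-miR-450a first, they differed only by T22C. ssc-miR-450b-5p was equal to ssc-miR-450c-5p at 16 of 22 positions and had another seed through G7A, with the base of ssc-miR-450c-5p first. ssc-miR-424-5p shared its seed with 5 other porcine names of the files, ssc-miR-15a, ssc-miR-15b, ssc-miR-16, ssc-miR-195 and ssc-miR-497. The seed of ssc-miR-503 differed from it by A8G and was held by no other porcine name among the 268 with a sequence.

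Of these hairpins 4 were placed on 1 scaffold of the pig genome used by the authors, all on the plus strand. The miR-542 hairpin stood at positions 3331 to 3440, miR-450c at 4053 to 4143, miR-450a at 4173 to 4278 and miR-450b at 4355 to 4443. The 4 hairpins spanned 1113 bases, with 612 bases between miR-542 and miR-450c and only 29 and 76 bases between the 3 miR-450 hairpins. The files name neither the build nor a chromosome for this scaffold. In the RefSeq gene table of Sscrofa11.1 the genes MIR450B, MIR450A, MIR450C and MIR542 follow each other on chromosome X without another gene between them, flanked by HPRT1 and PLAC1. The miRBase hairpins of miR-424 and miR-503 themselves had no genome position. Reads named ssc-miR-503 were assigned through miRBase, and those named ssc-miR-424-5p stood at other genome places with 1 mismatch, described below. The miRBase hairpins of the 4 placed members and of miR-424 are shown with the arms in capitals. In miR-450a only the 5p arm is marked, since that hairpin has 1 porcine mature name.
ssc-mir-542: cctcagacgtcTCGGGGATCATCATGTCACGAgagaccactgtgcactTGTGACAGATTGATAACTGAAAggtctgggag
ssc-mir-450c: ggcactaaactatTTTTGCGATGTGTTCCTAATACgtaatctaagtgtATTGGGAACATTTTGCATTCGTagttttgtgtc
ssc-mir-450a: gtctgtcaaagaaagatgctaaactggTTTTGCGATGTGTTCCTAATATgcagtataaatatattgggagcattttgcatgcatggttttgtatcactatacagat
ssc-mir-450b: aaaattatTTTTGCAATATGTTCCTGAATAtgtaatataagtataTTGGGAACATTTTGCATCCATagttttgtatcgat
ssc-mir-424: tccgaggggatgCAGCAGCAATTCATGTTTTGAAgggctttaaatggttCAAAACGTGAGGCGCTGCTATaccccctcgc
The GC content was 24.7% in the placed miR-450b hairpin, 34.1% in miR-450c, 34.9% in miR-450a and 51.8% in miR-542.

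**Figure D1:**
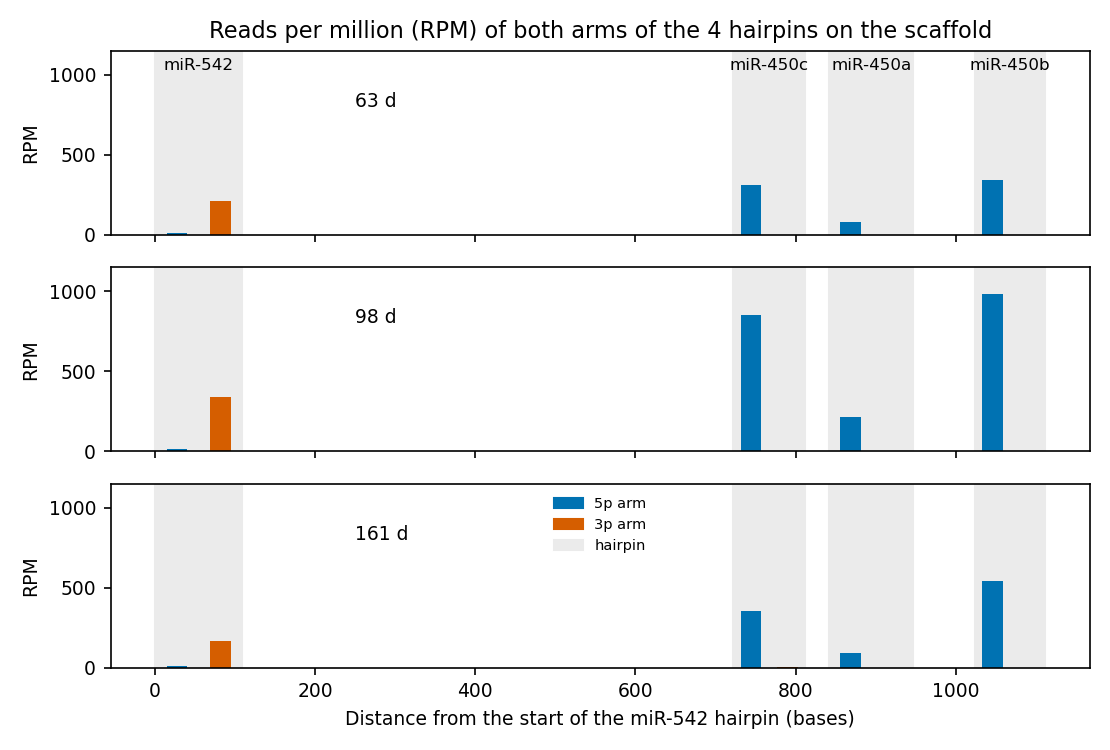
Level of each arm in reads per 1000000 listed reads (RPM, bars) at the 4 hairpins of the scaffold (grey), against the distance in bases from the start of the miR-542 hairpin, with 1 panel per library. At 98 d the 5p arms of miR-450b and miR-450c stood at 982 and 855 RPM and the 3p arm of miR-542 at 339 RPM, while the opposite arms are too low to be seen at this scale.

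The deposited files listed 1464699, 2418187 and 2242716 reads at 63, 98 and 161 d. Levels are given as reads per 1000000 of these listed reads (RPM), and 3 counts, taken as the floor, were worth 2.05, 1.24 and 1.34 RPM. Of the fixed muscle markers miR-1, miR-133a-3p, miR-133b, miR-206, miR-208b and miR-499-5p, 6 of 6 were listed in every library. Their summed level was between 226714 and 253910 RPM, each name being counted at 1 hairpin. Most of it came from ssc-miR-133a-3p, whose reads were divided between 2 hairpins and over both made up 43.3%, 36.2% and 44.0% of the listed reads at 63, 98 and 161 d.

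The members together had 1532.5, 6342 and 2900.5 reads in the libraries of 63, 98 and 161 d, where fractions come from reads that the authors' pipeline divided between hairpins. These sums were 1046, 2623 and 1293 RPM, so that the cluster took 0.105%, 0.262% and 0.129% of the listed reads. The level at 98 d was 2.51 times that at 63 d (95% interval 2.37 to 2.65). From 98 to 161 d the ratio was 0.493 (0.472 to 0.515), just past the limit of 0.5 used for a call, and from 63 to 161 d it was 1.24 (1.16 to 1.32). The summed level was thus highest in the 98 d library, and the 161 d library stood closer to that of 63 d.

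ssc-miR-450b-5p had the most reads of the members in every library, although at 63 d it was not separated from ssc-miR-450c-5p. It had 502, 2374 and 1221 reads at 63, 98 and 161 d, or 343, 982 and 544 RPM. With each name counted at 1 hairpin, it ranked 73, 45 and 63 among the porcine miRNAs, some of which have further reads at other hairpins. The level was 2.86-fold higher at 98 than at 63 d (2.60 to 3.16) and 0.555-fold at 161 against 98 d (0.517 to 0.594). The 161 d library was 1.59-fold above the 63 d library (1.43 to 1.77). Besides ssc-miR-450c-5p, whose lower bound was 1.01, it was the only one of the 6 members compared with an interval wholly above 1 in this pair.

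ssc-miR-450c-5p followed with 460.5, 2066.5 and 797 reads, which is 314, 855 and 355 RPM. The level at 98 d was 2.72-fold that of the first library (2.45 to 3.01), and the last library stood at 0.416 of it (0.383 to 0.451). Between 63 and 161 d the level differed by a factor of 1.13 (1.01 to 1.27). ssc-miR-450c-5p and ssc-miR-450b-5p could not be ordered at 63 d, where their intervals overlapped, whereas ssc-miR-450b-5p was above it at 98 and 161 d. This order depends on the measure, since the copies of the representative read were 302, 1402 and 532 for ssc-miR-450c-5p and 283, 1276 and 680 for ssc-miR-450b-5p.

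ssc-miR-450a, which differs from ssc-miR-450c-5p in its last base alone, had 118.5, 524.5 and 212 reads. The levels were 80.9, 217 and 94.5 RPM, with a 2.68-fold higher level at 98 than at 63 d (2.19 to 3.29). The step to 161 d had a fold of 0.436 (0.369 to 0.512). The 161 d library was not separated from the 63 d library, with a fold of 1.17 (0.925 to 1.47).

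ssc-miR-542-3p had 306, 819 and 381 reads, corresponding to 209, 339 and 170 RPM. It changed less from 63 to 98 d than the 5p arms of miR-450, with a fold of 1.62 (1.42 to 1.85), and stayed within the limit of 2. From 98 to 161 d the fold was 0.502 (0.443 to 0.567), which lies at the limit of 0.5. At 161 d it was the only one of the 6 members compared with an interval wholly below the 63 d library, at 0.813 of its level (0.698 to 0.948). The other arm, ssc-miR-542-5p, had 19, 38 and 25 reads or 13.0, 15.7 and 11.1 RPM, and its intervals of all 3 folds included 1.

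ssc-miR-424-5p, counted at the place with most of its reads, had 124.5, 417 and 223.5 reads. The level was 85.0 RPM at 63 d, 172 RPM at 98 d and 99.7 RPM at 161 d. Its fold of 2.03 between the first libraries (1.65 to 2.49) lay at the limit of 2. The step from 98 to 161 d had a fold of 0.578 (0.490 to 0.683). It was close to ssc-miR-450a in each library, and the intervals of both overlapped at 63 and 161 d but not at 98 d. ssc-miR-503 was listed with 87 reads at 98 d and 34 at 161 d, which is 36.0 and 15.2 RPM and a fold of 0.421 (0.275 to 0.633). It was not listed under this name at 63 d, and the reads of the same sequence at that age are described below.

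The remaining members were at or near the floor. ssc-miR-450c-3p had 1, 13 and 5 reads and ssc-miR-450b-3p 1, 3 and 2 reads, and neither reached the mean of 10 counts that was set for a call.

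**Figure D2:**
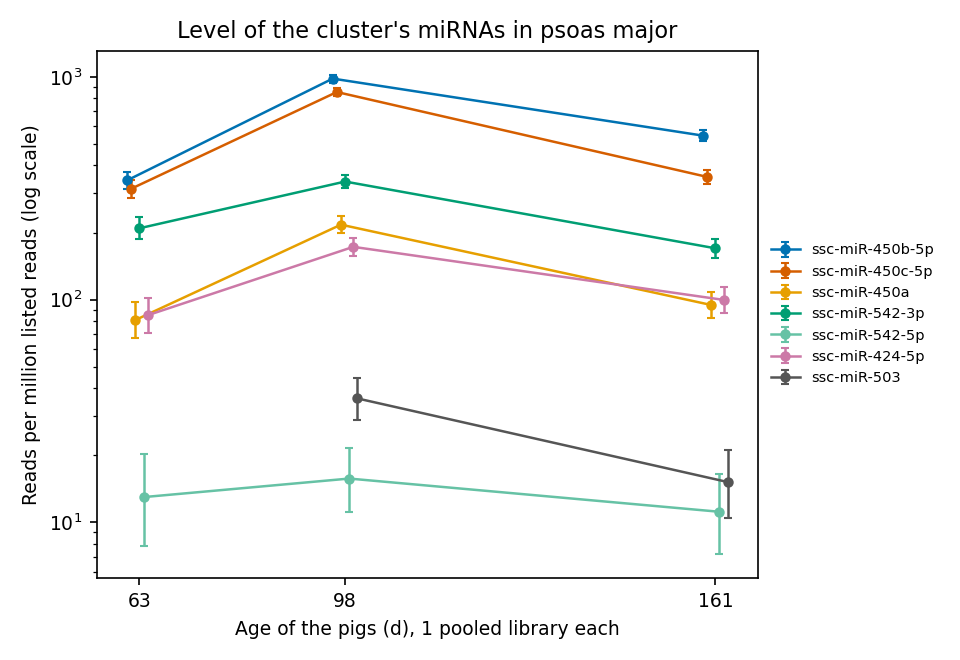
Level of 7 members in reads per 1000000 listed reads (log scale) against age in days, with 1 pooled library per age and 95% Poisson intervals for counting error, the points being shifted slightly along the x axis. ssc-miR-450b-5p stands at 343, 982 and 544 RPM, and ssc-miR-503 has no point at 63 d, where its sequence stood under a bovine name.

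Of the 9 members, 7 reached a mean of 10 counts, and 6 of these were listed in all 3 libraries. From 63 to 98 d, 4 of 6 members were past 2-fold, namely ssc-miR-450a, ssc-miR-450b-5p, ssc-miR-450c-5p and ssc-miR-424-5p, against 12.6% of the 223 porcine miRNAs compared, and 0 of 6 were below 0.5, against 2.69%. From 98 to 161 d, 3 of 7 members were below 0.5, namely ssc-miR-450a, ssc-miR-450c-5p and ssc-miR-503, against 11.1% of 225, and 0 of 7 were past 2, against 2.22%. From 63 to 161 d, 0 of 6 members were past the limit in either direction, against 7.52% of 226 porcine miRNAs above 2 and 11.1% below 0.5. The median fold of the members was 2.35, 0.502 and 1.15 in these pairs, beside 1.27, 0.809 and 1.05 over all porcine miRNAs compared. The members come from neighbouring hairpins and partly share reads, so they are not independent of each other.

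In all 6 members that were listed throughout, the level was highest at 98 d, but this was also true of 52.9% of the 223 porcine miRNAs. The highest level lay at 63 d in 0 of 6 members, against 27.8%, and at 161 d in 0 of 6, against 19.3%. ssc-miR-450a and ssc-miR-450c-5p were 2 of the 10 porcine miRNAs (4.48%) that were above 2 from 63 to 98 d and then below 0.5 from 98 to 161 d. The other 8, named after their values were seen, were ssc-miR-10a-3p, ssc-miR-122, ssc-miR-190b, ssc-miR-192, ssc-miR-194b-5p, ssc-miR-215, ssc-miR-335 and ssc-miR-429.

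The scale of the libraries bears on these counts. On the RPM scale the median porcine miRNA had a log2 fold of 0.34 from 63 to 98 d and -0.31 from 98 to 161 d, whereas edgeR's TMM put these medians at 0.02 and 0.04. With TMM, 5.38% of all porcine miRNAs were above 2 and 9.87% below 0.5 from 63 to 98 d, and 5.33% were on each side from 98 to 161 d. The fold of the summed members was then 2.00 (1.89 to 2.11) from 63 to 98 d, marginally under the limit, and 0.625 from 98 to 161 d. Members past 0.5 from 98 to 161 d numbered 0 of 7 with TMM, and 5 of 6 members were highest at 98 d, ssc-miR-542-5p being the exception, beside 26% of all porcine miRNAs. The folds of ssc-miR-450a, ssc-miR-450b-5p and ssc-miR-450c-5p from 63 to 98 d remained above 2 with all 4 other scalings, with the lowest values at 2.11, 2.26 and 2.14. That of ssc-miR-424-5p came to between 1.60 and 1.87 and did not. On the RPM scale with copies of the representative read only, the fold of ssc-miR-450a was 2.04 (1.67 to 2.51), which lies at the limit of 2. Copies were not combined with the other scalings.

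**Figure D3:**
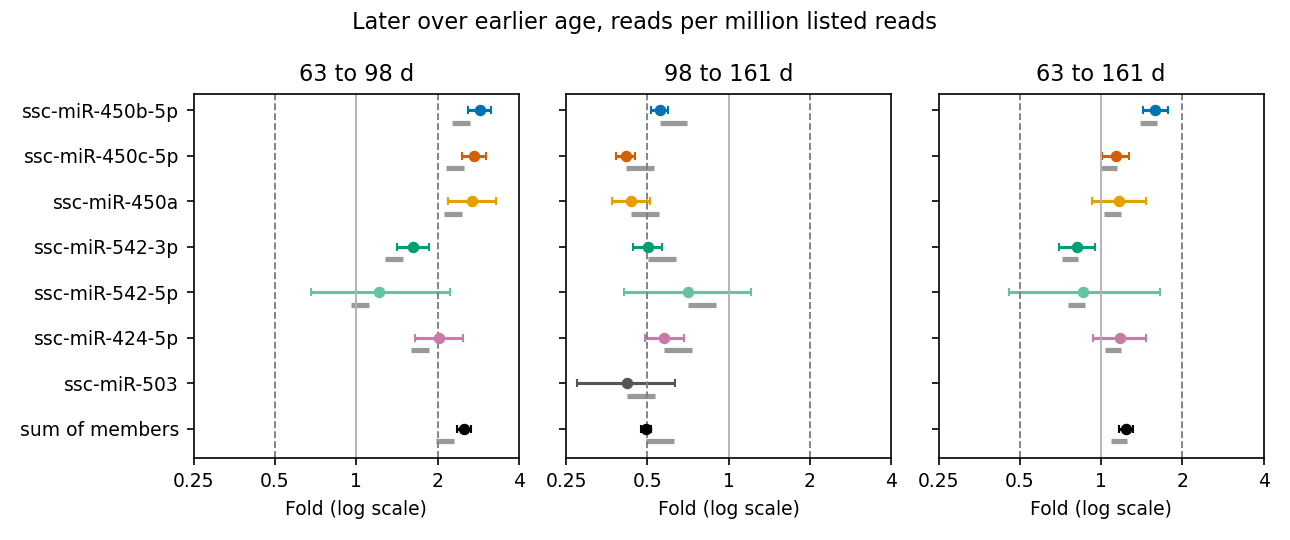
Fold change of 7 members and of their sum between libraries (log scale), with 95% intervals for counting error (coloured bars) and the range over 4 other scalings of the libraries (grey bars). From 63 to 98 d the 3 miR-450 5p arms lie above the dashed limit of 2 on every scale, and from 98 to 161 d the grey bars of the members called below 0.5 cross that limit.

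Ratios of members within a library do not depend on the scale. Reads of ssc-miR-450c-5p were 0.917 of those of ssc-miR-450b-5p in the 63 d library (0.807 to 1.04). At 98 d the ratio was 0.870 (0.820 to 0.924), and in the 161 d library it was 0.653 (0.596 to 0.714). The ratio changed from 98 to 161 d by an odds ratio of 0.750 (0.673 to 0.835), while its odds ratio from 63 to 98 d was 0.948 (0.823 to 1.09). The ratio of ssc-miR-542-3p to ssc-miR-450b-5p was 0.610 in the 63 d library (0.527 to 0.704). It was 0.345 at 98 d (0.318 to 0.374), and in the 161 d library 0.312, with bounds of 0.277 and 0.350. Here the difference lay between 63 and 98 d, with an odds ratio of 0.566 (0.480 to 0.669), and from 98 to 161 d the interval included 1 (0.905, 0.784 to 1.04). Hairpins of the same scaffold thus did not keep a fixed ratio of their reads, and the 2 ratios moved in different pairs of libraries.

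ssc-miR-424-5p behaved like ssc-miR-542-3p in this respect, with ratios to ssc-miR-450b-5p of 0.248, 0.176 and 0.183 at 63, 98 and 161 d. The odds ratio between the first libraries was 0.706 (0.563 to 0.888), and for the step to 161 d it was 1.04 (0.871 to 1.25). As a result ssc-miR-450b-5p made up 32.8%, 37.4% and 42.1% of the members' reads in the libraries of 63, 98 and 161 d, and ssc-miR-542-3p 19.97%, 12.9% and 13.1%. These intervals do not cover the variation between pigs, which was not measured.

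**Figure D4:**
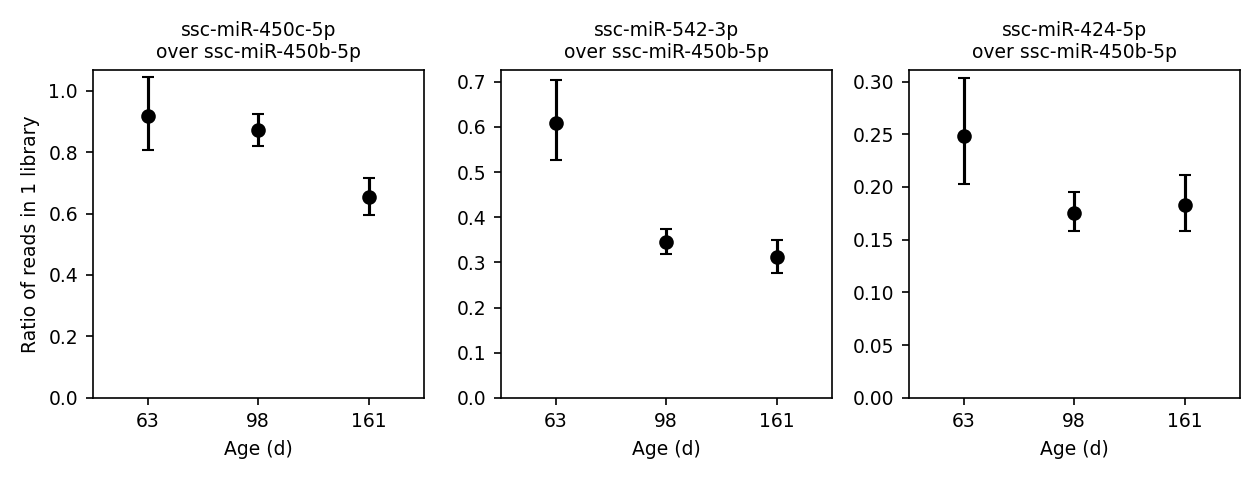
Ratio of the reads of 3 members to those of ssc-miR-450b-5p within each library, with 95% Clopper-Pearson intervals for counting error and every y axis starting at 0. The ratio of ssc-miR-450c-5p is lower at 161 d (0.653) than at the earlier ages, and the ratios of ssc-miR-542-3p and ssc-miR-424-5p are highest at 63 d (0.610 and 0.248).

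The arm that gave most reads differed between the hairpins and was the same in every library. The 3p arm held 94.2% of the reads of the miR-542 hairpin in the 63 d library (Wilson interval 91.1 to 96.2). This share was 95.6% at 98 d (94.0 to 96.8), and the 161 d library had 93.8% (91.1 to 95.8). In the miR-450 hairpins nearly all reads came from the 5p arm. The 3p share of miR-450c was 0.216%, 0.625% and 0.623% at 63, 98 and 161 d, with intervals that reach from 0.0382% to 1.45%, and the 3p share of miR-450b was 0.199%, 0.126% and 0.164%. Changes of these shares between libraries were not detectable at this depth, since every odds ratio between libraries had an interval that included 1. Opposite the 5p arm of miR-450a the files listed 2 reads at 98 d under a human name and 1 read at 161 d under a name without a mature entry.

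The authors' pipeline did not assign the reads of ssc-miR-450a to 1 hairpin. Of the reads counted for ssc-miR-450a at 63, 98 and 161 d, 100%, 99.8% and 100% were the divided part of reads that had also been placed at miR-450c, and an equal part stood under ssc-miR-450c-5p. Counted whole at ssc-miR-450a, these reads came to 162, 433 and 189 RPM, and 233, 638 and 261 RPM were left for ssc-miR-450c-5p. The ratio of ssc-miR-450a to ssc-miR-450c-5p was 0.257, 0.254 and 0.266 as deposited, and the intervals of its changes included 1. Equal parts of the same reads stood on both sides of this ratio, whereas the intervals take the counts as independent. They therefore cannot show that the ratio was steady. With the shared reads counted whole at ssc-miR-450a the ratio was 0.693, 0.679 and 0.725. With copies of the representative read only, its change from 63 to 98 d was an odds ratio of 0.726 (0.570 to 0.926), which does not include 1. The shared reads do not carry the difference between ssc-miR-450c-5p and ssc-miR-450b-5p, since the odds ratio of that pair from 98 to 161 d was 0.737 without them.

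The files give 1 representative read for each arm. It was the full mature sequence in all 3 libraries for ssc-miR-450a, ssc-miR-450c-5p, ssc-miR-450c-3p and ssc-miR-542-3p. For the other members it differed in its ends from the mature sequence in at least 1 library, and it is shown because an altered 5′ end moves the seed.
ssc-miR-450b-5p at 63, 98 and 161 d: tTTTGCAAtatgttcctgaat
ssc-miR-450b-3p at 63 and 98 d: tATTGGGAacattttgcatcc
ssc-miR-450b-3p at 161 d: tATTGGGAacattttgcatcca
ssc-miR-542-5p at 63 d: tCGGGGATcatcatgtcacga
ssc-miR-542-5p at 98 and 161 d: tCGGGGATcatcatgtcacgaga
ssc-miR-424-5p at 63, 98 and 161 d: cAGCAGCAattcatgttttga
ssc-miR-503 at 98 and 161 d: tAGCAGCGggaacagtactg
The capitals mark bases 2 to 8 of the read. Only in ssc-miR-450b-3p did the seed move, because its reads began 2 bases before the annotated start, on 1, 2 and 1 copies. In the others the 5′ end was that of the mature sequence. The 3′ end was shorter by 1 base in ssc-miR-450b-5p and ssc-miR-424-5p and by 3 in ssc-miR-503, and in ssc-miR-542-5p it was longer by 2 at 98 and 161 d and unaltered at 63 d.

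The share of reads with a mapping error, which includes reads with added or changed bases at the 3′ end, differed between the members. It was 6.37%, 6.23% and 6.22% at 63, 98 and 161 d for ssc-miR-450b-5p and 8.44%, 10.1% and 12.7% for ssc-miR-450a. For ssc-miR-450c-5p it was 24.5%, 19.9% and 21.8%, and for ssc-miR-542-3p 25.8%, 27.2% and 29.4%. The reads of ssc-miR-450c-5p include a part shared with ssc-miR-450a, whose last base differs. The weight of these reads in its share was not tested. Among porcine miRNAs with at least 100 reads in a library the median share was between 16.2% and 16.9%, with the lower quartile between 9.09% and 9.45%. ssc-miR-450b-5p was thus below the lower quartile in each library. For ssc-miR-424-5p the share was 100%, since every listed place carries 1 mismatch.

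ssc-miR-424-5p was listed at several places, none of which is the miR-424 hairpin. The place used here, at positions 6631259 to 6631324 of the minus strand of a chromosome that the files give only by an accession, held 124.5, 417 and 223.5 reads. The other places together brought the sum to 130, 438 and 232 reads. The representative read there lacked the last base of the mature sequence. The full mature sequence was the representative read of the bovine name bta-miR-424-5p, which was listed with 88, 212 and 101 reads at 63, 98 and 161 d.

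For miR-503 the name changed between the files. The read shown above for ssc-miR-503 at 98 and 161 d was listed at 63 d as bta-miR-503-5p with 26 reads, or 17.8 RPM. With both names summed, the arm had a fold of 2.03 between the first libraries (1.29 to 3.27). Its level at 161 d was 0.854 of that at 63 d (0.498 to 1.48). With the bovine name added, ssc-miR-424-5p had a fold of 1.79 from 63 to 98 d (1.53 to 2.10), and the sum of the members one of 2.41. This way of counting was added after the data had been seen.

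The seed of ssc-miR-424-5p is shared by abundant miRNAs of other clusters. The 6 porcine names with this seed had 3122, 5994 and 4631 RPM at 63, 98 and 161 d, of which ssc-miR-424-5p made up 2.73% (2.30 to 3.25), 2.88% (2.62 to 3.16) and 2.16% (1.89 to 2.45). With the reads of the bovine name added to ssc-miR-424-5p, and no further names to the others, the share was 4.56%, 4.28% and 3.09%. Its highest value then lay at 63 d rather than at 98 d. ssc-miR-16 was the most abundant of them, with 2293, 4466 and 3437 RPM. Each name was counted at 1 hairpin, and the 10798.5 and 7707.33 reads of ssc-miR-16 at 98 and 161 d hold fractions from division between hairpins. Parts listed at other hairpins are left out, so the level of the group can be too low and these shares too high. From 63 to 98 d the folds were 1.95 for ssc-miR-16, 1.80 for ssc-miR-15a, 1.86 for ssc-miR-497, 3.75 for ssc-miR-195 and 0.684 for ssc-miR-15b. Thus 1 of 5 was past 2, against 12.6% of all porcine miRNAs compared. From 98 to 161 d these 5 had folds from 0.738 for ssc-miR-15b to 0.935 for ssc-miR-497. None was below 0.5 (0 of 5), against 11.1% of all porcine miRNAs compared. ssc-miR-424-5p, at 0.578, and ssc-miR-503, at 0.421, were below all of them in that pair.

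Of the 6 muscle markers, 2 were past 2-fold from 63 to 98 d, against 12.6% of all porcine miRNAs compared. These were ssc-miR-1 at 2.56 and ssc-miR-208b, which is encoded in a slow myosin gene, at 2.12. The folds of the others were 1.63 for ssc-miR-499-5p, 1.43 for ssc-miR-206, 1.22 for ssc-miR-133b and 0.835 for ssc-miR-133a-3p. ssc-miR-133a-5p, which is not among the markers, had a fold of 0.892. From 98 to 161 d ssc-miR-206 had a fold of 0.486 and was the 1 of 6 below 0.5, against 11.1% of all porcine miRNAs compared. In that pair ssc-miR-499-5p was at 0.590, ssc-miR-1 at 0.672 and ssc-miR-208b at 0.723. These calls were made on the RPM scale. TMM multiplies every fold by 0.797 from 63 to 98 d and by 1.27 from 98 to 161 d. That brings ssc-miR-208b and ssc-miR-206 within the limits.

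Among 155 porcine miRNAs with a mean of at least 100 counts, likeness to the summed members was measured as the distance between the pairs of log2 folds (63 to 98 d, 98 to 161 d), over 3 libraries only. The summed members lay at 1.33 and -1.02. Outside the cluster the nearest was ssc-miR-144, an erythroid miRNA, at 1.18 and -0.86 (distance 0.22). It was followed by ssc-miR-374a-5p (0.33), ssc-miR-146a-5p (0.39), ssc-miR-1 (0.45) and ssc-miR-199b-5p (0.45). ssc-miR-542-3p, a member, lay farther away than these 5, at a distance of 0.63. With 2 differences per miRNA, such a likeness is a description of these libraries.

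**Figure D5:**
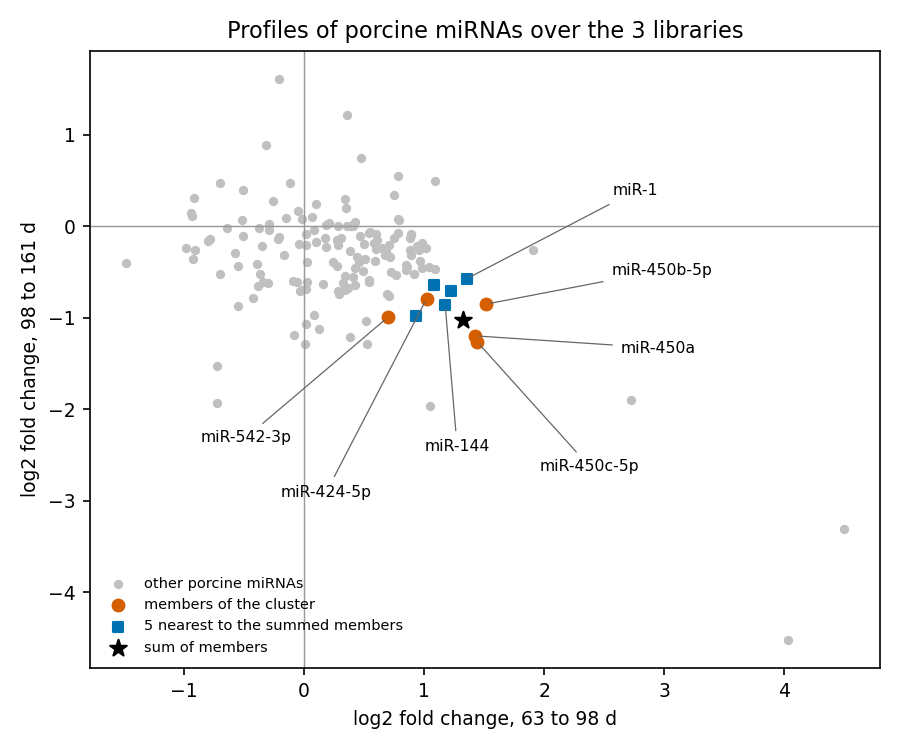
Log2 fold change from 98 to 161 d against that from 63 to 98 d for 155 porcine miRNAs with a mean of at least 100 counts, with the members in orange, the 5 nearest other miRNAs as blue squares and the sum of the members as a star. The 5 members plotted lie between 0.70 and 1.52 on the x axis and between -1.27 and -0.79 on the y axis.

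Markers of other cells also differed between the libraries, and their part in the cluster's levels was not tested. The liver miRNA ssc-miR-122 had 7.51, 123 and 5.35 RPM at 63, 98 and 161 d. The erythroid miRNA ssc-miR-451 had 752, 1366 and 1001 RPM. Of the 3 leukocyte markers 2 were listed, with a sum of 632, 1052 and 698 RPM, and miR-223 was listed under no porcine name. The 2 endothelial markers summed to 5833, 9769 and 6759 RPM, and these 4 groups were highest in the 98 d library, as the cluster was. On this scale 52.9% of the 223 porcine miRNAs compared were also highest at 98 d. Among the muscle markers so were ssc-miR-1, ssc-miR-133b, ssc-miR-206, ssc-miR-208b and ssc-miR-499-5p, but not ssc-miR-133a-3p. The 2 smooth muscle markers went another way, with 9380, 11823 and 27194 RPM. In pooled tissue, more cells of a type and more of a miRNA per cell cannot be told apart.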

How the data were processed

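The data are 3 small RNA libraries of psoas major muscle, 1 per age, each pooled from several pigs. The authors processed the reads with ACGT101-miR v4.2 and mapped them to miRBase and to a pig genome whose build is not given in the sources used here. The deposited counts give, unnormalized, how often the read chosen to represent an arm was sequenced. The deposited expected counts are the reads of all isoforms of an arm, divided by the authors' pipeline between hairpins where a read maps to several. The header of the 98 and 161 d files stands 1 cell to the right of its values, and the columns were read accordingly, as other (shifted) columns of the deposited files. The 63 d file has another layout.

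Expected counts were scaled to 1000000 listed reads. Where a name stood at more than 1 hairpin, the one found in most libraries was used, or, if equal, that with most reads. Folds carry exact conditional binomial intervals on rounded counts, shares Wilson or Clopper-Pearson intervals, ratios between libraries exact conditional odds ratios, and levels Poisson intervals, all at 95% and for counting error only. Without replicates no p-value was computed. A call means a fold above 2 or below 0.5 with a mean of at least 10 counts. A name missing from 1 library of a pair gave no fold, which held for 5 porcine names of that mean in at least 1 library. The named miRNAs are the members, the 5 with the nearest profile and fixed lists. Members and lists were chosen with earlier results of these data known. Python 3.11.15 with scipy 1.17.1 was used, and edgeR 4.0.16 and DESeq2 1.42.0 gave the other scalings. The intervals and calls were tested on simulated data with Poisson spread only, which is what the intervals assume. That test therefore does not cover variation between pigs or reads divided between hairpins.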

Additional observations from a re-analysis of the deposited data

Results flagged for a closer look

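Reads of the cluster's hairpins outside the counted porcine names exceeded the limit of 3 counts that a count of 0 allows, and no comparison between members used them. They stood under bta-miR-424-3p with 138, 171 and 124 reads at 63, 98 and 161 d, under bta-miR-424-5p with 88, 212 and 101 reads, and under bta-miR-503-5p with 26 reads at 63 d. The read of bta-miR-424-3p is contained whole in the porcine miR-424 hairpin and is shown with its seed in capitals.
bta-miR-424-3p: cAAAACGTgaggcgctgctat
Its level was 94.2, 70.7 and 55.3 RPM, and the level at 98 d was 0.751 of that at 63 d (95% interval 0.596 to 0.946). The step to 161 d had a fold of 0.782 (0.615 to 0.991), and over both steps the fold was 0.587 (0.457 to 0.753). Its highest level was thus in the 63 d library, unlike that of the 5p arm, which had 149, 269 and 148 RPM over all its names and places. The 3p arm held 38.8% of the reads of both arms in the 63 d library (Wilson interval 33.8 to 43.9). This share was 20.8% at 98 d (18.2 to 23.7), and the 161 d library had 27.1% (23.3 to 31.4). The odds of a 3p read changed by a factor of 0.416 between the first libraries (0.314 to 0.551) and by 1.42 in the step to 161 d (1.07 to 1.86), a comparison within libraries that needs no scaling. With the 5p reads of the bovine name alone the 3p share was 61.1%, 44.6% and 55.1%, so that which arm had more reads at 63 and 161 d depends on the names counted, and the odds ratios were 0.515 (0.363 to 0.729) and 1.52 (1.08 to 2.15). From 63 to 161 d the odds ratio was 0.589 with all 5p names (0.432 to 0.800), but with the bovine 5p name alone it was 0.783 and its interval included 1 (0.529 to 1.16). In the hairpins of miR-542, miR-450b and miR-450c the intervals of the corresponding odds ratios included 1. The cause was not tested.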

How the results depend on the processing

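The fold of the summed members from 63 to 98 d was 2.00 with TMM, 1.98 with DESeq2's median of ratios, 2.30 with the total of the porcine miRNAs and 1.98 with that total without ssc-miR-133a-3p. From 98 to 161 d it was 0.625 with TMM, 0.605 with the median of ratios and 0.548 with the total without ssc-miR-133a-3p, and from 63 to 161 d 1.14 and 1.09 with both totals. Its direction was kept under all 8 alternatives in every pair. The number of members below 0.5 from 98 to 161 d was 0 with TMM and 0 with the median of ratios, and without a filter on low counts 1 member, ssc-miR-450c-3p, with 1 and 5 reads, was above 2 from 63 to 161 d. With copies of the representative read only, the odds ratio of ssc-miR-450a to ssc-miR-450c-5p from 63 to 98 d was 0.726 (0.570 to 0.926), and the 3p share of miR-542 at 98 d 94.0%. Of 189 values of single members under alternatives, 159 stayed within the counting interval of the main value, 30 moved beyond it and 0 of those past 2-fold changed direction. Among folds within the limits, that of ssc-miR-542-5p from 63 to 98 d fell on the other side of 1 under 3 alternatives, and those of ssc-miR-450a, ssc-miR-450c-5p, ssc-miR-424-5p and ssc-miR-542-5p from 63 to 161 d under 1 each. The cause of these shifts was not tested beyond the scaling itself. No paired analysis was possible because each age had 1 library. Depth limits the 3p arms of miR-450 and ssc-miR-542-5p, whose counts did not exceed 38.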
